A study of Mus musculus with 42 samples.

Results

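The 10 genes described here belong to glycolysis and to glucose or lactate transport, and were followed through the mouse 2-cell and 4-cell stages: the glucose transporter Slc2a1, the enzymes Hk1, Hk2, Aldoa, Tpi1, Gapdh, Eno1, Pkm and Ldhb, and the lactate transporter Slc16a1. They were chosen by name among the pathway genes with a row in the table. The rule uses no measured value, but the choice was made with earlier results of these data known. A further 35 genes of the pathway, its branches and its transporters also have a row and are described below. They are 10 of 15737 genes analysed. The study asked how loss of NAD+ affects early development, and RNA was sequenced from ICR mouse embryos at 34 h after hCG (early 2-cell), 48 h (late 2-cell) and 58 h (4-cell). The early 2-cell embryos and the late 2-cell and 4-cell controls were wild type and labelled untreated. Embryos of both later stages were also given 0.01 µM FK866, an inhibitor of the NAD+ salvage enzyme NAMPT, with or without 10 µM NMN, the product of that enzyme. Late 2-cell embryos were in addition given 10 nM TSA (trichostatin A, an inhibitor of histone deacetylases) or carry the label Sirt1. The study describes the last group as a knockdown made by injecting zygotes with siRNA, Trim21 mRNA and an antibody to SIRT1, a deacetylase that uses NAD+. FK866 was present from the zygote and TSA from the early 2-cell stage. The study describes 2 libraries of 3 pooled embryos for each of the 9 groups, so an embryo has no value of its own.

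Glycolysis splits glucose into pyruvate and needs NAD+ at the step of GAPDH, which lactate dehydrogenase gives back when it turns pyruvate into lactate. Hexokinases trap glucose, aldolase and triosephosphate isomerase act on the triose step, and enolase and pyruvate kinase complete the path. Mouse embryos before compaction live mainly on pyruvate and lactate and use little glucose, and their lactate dehydrogenase is mostly the LDHB form that the oocyte laid down.

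The deposited table holds 1 FPKM column (reads scaled to exon length and to the total reads of the library) for each group. The lengths that fit the values join all annotated exons of a gene, such as 1570 bases for Ldhb, 3310 for Ldha and 5001 for Pkm. They can exceed the transcript present, so ratios between genes, and the order of genes at close levels, are uncertain. In 7 columns a value was the sum of 2 libraries, while the column headed 4-cell-FK866 and that headed 4-cell-FK866-NMN each came from 1. Values are given here per library, with A for the library of a column that has more reads and B for the other. Library totals ranged from 3169677 to 10003481 reads. No p-value was computed. A difference is called where log2(FPKM per library + 1) differs by more than 1 (2-fold in FPKM + 1, which understates the change of low genes) in a gene with at least 1 FPKM in either column, and the spread is shown by whether the separated libraries of both columns overlap.

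The headers and the tables of the study name different columns for 5 groups. All 84 4-cell control values of those tables equal the column headed late-2-cell-TSA, all 84 4-cell FK866 values the column headed late-2-cell-Sirt1, and all 84 4-cell FK866+NMN values the column headed 4-cell-con. The late 2-cell TSA differences in the tables had the direction of the column headed 4-cell-FK866 for 1203 of 1203 genes. The next best column was early-2-cell, with 1096 of these genes, and the column headed late-2-cell-TSA had 546. For the Sirt1 group, 773 of 821 genes had the direction of the column headed 4-cell-FK866-NMN, against 442 for the column headed late-2-cell-Sirt1 and 703 for late-2-cell-FK866. For late 2-cell control, FK866 and FK866+NMN embryos the tables and the headers name the same columns. None of the table groups compared was early 2-cell, so the early 2-cell column is read by its header. Results for the other groups are given by the headers and by the tables, side by side. The late-2-cell-con column is used here as the control of every late 2-cell treatment and the base of the 4-cell control. Those comparisons share its 2 libraries and are not independent. The study describes a DMSO control for the inhibitors, and for the knockdown a control of zygotes injected with scrambled siRNA and Trim21 mRNA. No column is headed as an injected control, so injection and knockdown cannot be told apart here.

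Sirt1, the gene aimed at in the knockdown, was at 86.6 and 66.2 FPKM in libraries A and B of late-2-cell-con. The column headed late-2-cell-Sirt1 held 32.4 and 73.1 FPKM, which overlapped the control libraries. The column that the tables give to this group held 11.3 FPKM, and the column they give to TSA held 7.61 FPKM, both below the control libraries and near the early 2-cell level of 13.5 and 6.18 FPKM. Nampt is not analysed here. The 7 measured markers of the 2-cell stage summed to between 156 and 394 FPKM in the early 2-cell column and the 3 columns named alike, to 248 FPKM in the column headed 4-cell-FK866, to 311 FPKM in that headed 4-cell-FK866-NMN, and to between 10.6 and 35.7 FPKM in the columns headed late-2-cell-TSA, late-2-cell-Sirt1 and 4-cell-con. The 4 measured oocyte markers summed to between 35.3 FPKM (late-2-cell-TSA) and 291 FPKM (early-2-cell). Of 7 measured cumulus and granulosa genes, Nr5a2, which embryos also use, was the only one that reached 1 FPKM in 7 of the columns. Cyp19a1, the aromatase, was at 8.12 FPKM in the column headed 4-cell-FK866 and 2.91 FPKM in that headed 4-cell-FK866-NMN, where Star, of steroid synthesis, was at 2.50 FPKM. Foxl2 was listed at 0 in all columns but 4-cell-con. Among 3 blood genes, Ptprc had at most 2 reads in any library and Hba-a1 reached its highest value, 130 FPKM, in the column headed 4-cell-FK866. The 3 measured of 6 later lineage genes summed to between 0.07 and 11.3 FPKM, and one of them, Nanog, was at 0 and 22.7 FPKM in libraries A and B of late-2-cell-FK866-NMN. The part of these levels in the results below was not tested.

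The 250 bases before the start of transcription are shown for 3 members: Ldhb, the member with the highest level, Slc2a1, which fell between the early and late 2-cell columns, and Slc16a1, which rose. RefSeq promoters on GRCm38.p6 were matched for all 10 members. Capitals mark matches to 3 motifs on either strand. The GC box was searched as GGGCGG. The CCAAT box was searched by the letters of its name. The core of the hypoxia response element was searched as ACGTG.
Ldhb, chr6:142507958-142508207, minus strand: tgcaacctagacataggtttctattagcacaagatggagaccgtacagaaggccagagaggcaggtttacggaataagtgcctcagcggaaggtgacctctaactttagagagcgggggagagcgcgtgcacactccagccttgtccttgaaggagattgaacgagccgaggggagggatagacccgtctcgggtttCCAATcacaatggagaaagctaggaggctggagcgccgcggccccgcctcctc
Slc2a1, chr4:119108495-119108744, plus strand: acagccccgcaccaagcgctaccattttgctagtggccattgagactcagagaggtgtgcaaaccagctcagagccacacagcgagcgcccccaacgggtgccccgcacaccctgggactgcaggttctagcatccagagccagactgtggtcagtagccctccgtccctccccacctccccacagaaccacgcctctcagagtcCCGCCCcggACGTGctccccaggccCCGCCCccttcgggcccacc
Slc16a1, chr3:104638414-104638663, plus strand: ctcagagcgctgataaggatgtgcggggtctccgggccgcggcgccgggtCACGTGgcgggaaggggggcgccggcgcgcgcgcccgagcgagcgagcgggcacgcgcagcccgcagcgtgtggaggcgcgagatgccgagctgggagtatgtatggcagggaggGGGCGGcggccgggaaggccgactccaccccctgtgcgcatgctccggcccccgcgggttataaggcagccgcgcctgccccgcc
Slc2a1 held 2 GC boxes and 1 hypoxia core, and Ldhb held 1 CCAAT box and neither of the other motifs. Slc16a1 held 1 GC box and 1 E-box, searched as CACGTG, which holds the hypoxia core on each strand. Among 32536 promoters of this length, 33.0% held a GC box, 33.8% a CCAAT box, 16.7% the hypoxia core and 6.04% the E-box. The Slc16a1 stretch held 37 CG dinucleotides, more than 97.8% of those promoters, while Slc2a1 held 13 and Ldhb 14. These matches describe letters and say nothing of binding.

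Ldhb (chr6:142490249-142507957) stood far above the other members in the early 2-cell column. It was at 1904 FPKM per library in early-2-cell, at the 99.9th percentile of all genes, and made up 91.7% of the summed FPKM of the 10 members. In 8 of the 9 columns it ranked first. The exception was the column headed late-2-cell-TSA, where Ldhb was at 12.8 FPKM and Slc16a1 ranked first at 21.9 FPKM. In the column headed 4-cell-con the Ldhb libraries, at 91.65 and 44.73 FPKM, overlapped those of Slc16a1, at 70.75 and 45.16 FPKM. Ldhb also had the widest range, 7.11 on the log2 scale between its lowest and highest column.
In the early 2-cell column Aldoa (chr7:126795234-126800751) followed at 42.2 FPKM, Slc2a1 (chr4:119108711-119137983) at 38.6 FPKM and Pkm (chr9:59656368-59679375) at 37.0 FPKM. Aldoa lay just above the others, at 42.7 and 41.7 FPKM in libraries A and B, while Slc2a1 at 36.3 and 40.8 FPKM and Pkm at 33.8 and 40.2 FPKM overlapped. Tpi1 (chr6:124810586-124814296), at 25.8 and 28.2 FPKM, lay below them. Slc16a1 (chr3:104638668-104658462), Eno1 (chr4:150236721-150248879) and Gapdh (chr6:125161715-125166467) lay between 6.91 and 9.91 FPKM, and the Slc16a1 libraries overlapped those of both enzymes.
The hexokinases were the lowest members in the early 2-cell column. Hk2 (chr6:82725025-82774454) was at 1.34 and 1.98 FPKM in early-2-cell, and Hk1 (chr10:62268855-62379908) had 1 read in both libraries together. Across the 9 columns Hk1 had between 0 and 3 reads in 5 columns and between 1.01 and 4.35 FPKM in the other 4. All positions are on GRCm38, from GENCODE M21.

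**Figure D1:**
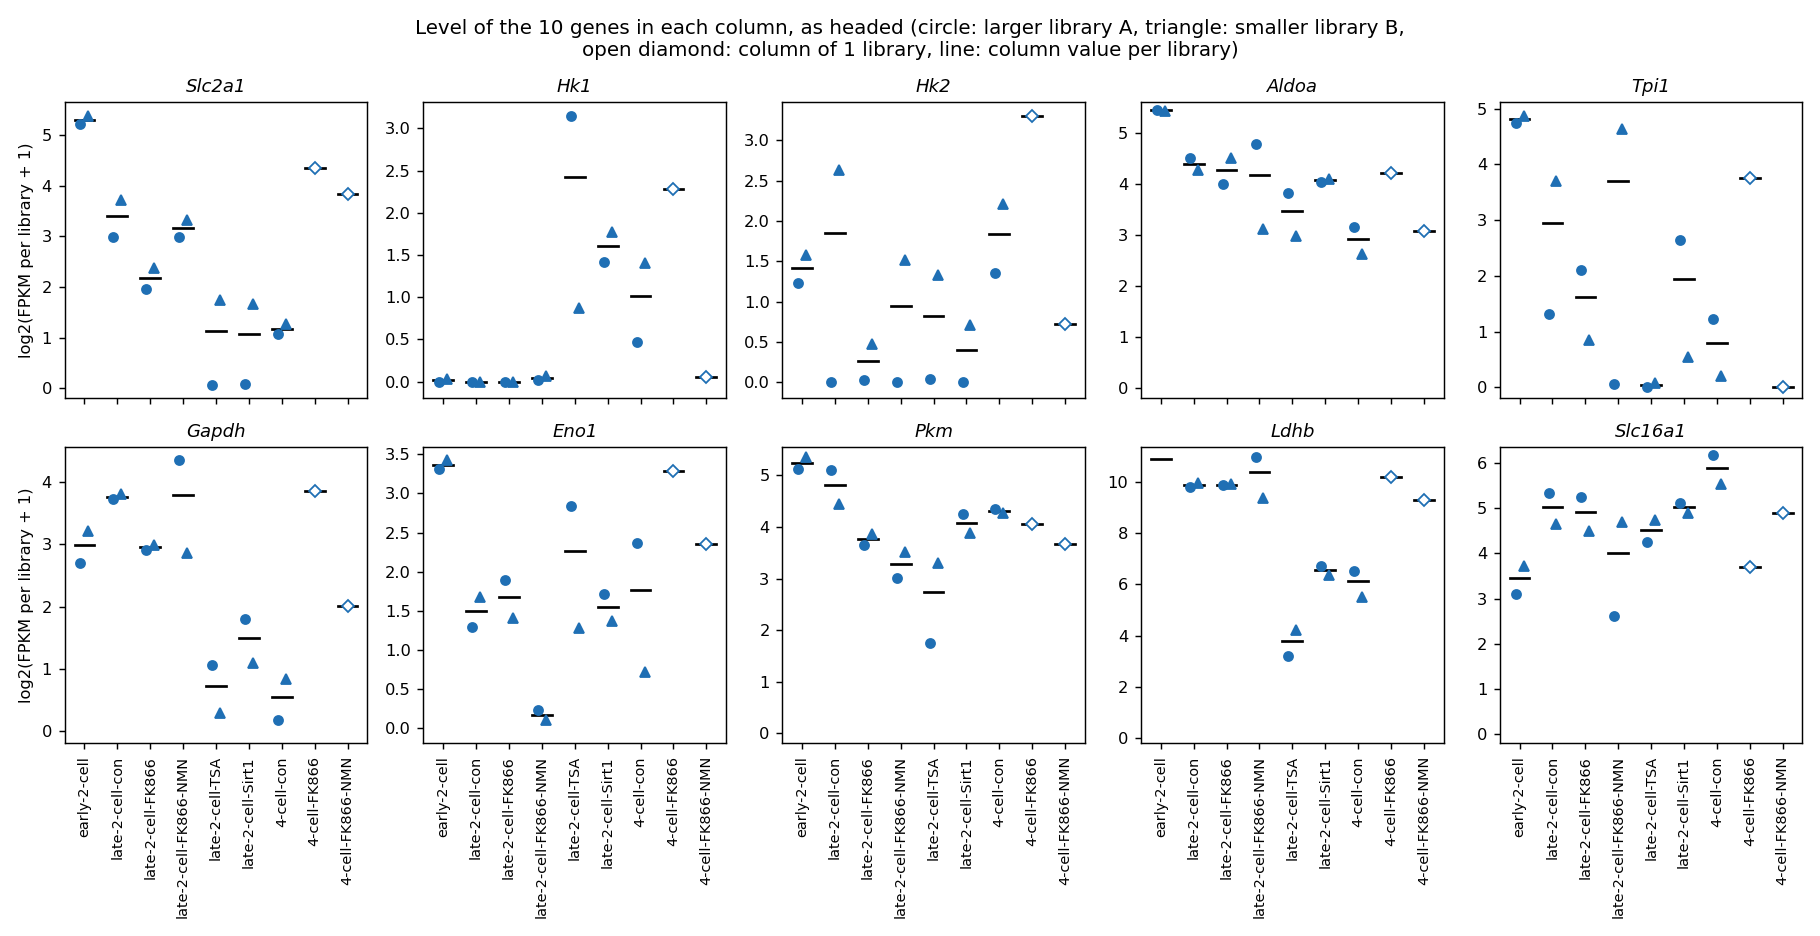
Level of each of the 10 genes, as log2(FPKM per library + 1), in the 9 columns named by their headers. Circles are library A, triangles library B, open diamonds the columns of 1 library, and lines the column value per library; Ldhb in early-2-cell could not be separated and has a line only.

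From the early to the late 2-cell control column, 4 enzymes of the path and the glucose transporter fell and the lactate transporter rose. Of the 10 members 9 were expressed, and 5 of them were called lower: Slc2a1, Aldoa, Tpi1, Eno1 and Ldhb. Slc16a1 was called higher. Among 9514 expressed genes, 31.7% were called lower and 32.2% higher, 63.9% in all. The median log2 fold change was -0.73 over the 10 members and -0.0032 over the expressed genes. FPKM is a share of the library, so a loss of one transcript and a gain of others cannot be told apart, nor can fewer cells of a type and less RNA per cell in these pools.
Slc2a1, which carries glucose into the cell, fell from 36.3 and 40.8 FPKM to 6.95 and 12.3 FPKM in libraries A and B, a log2 fold change of -1.90. Eno1, the enolase, fell from 8.90 and 9.73 FPKM to 1.45 and 2.19 FPKM (-1.87). Tpi1, which interconverts the trioses, fell from 25.8 and 28.2 FPKM to 1.50 and 11.9 FPKM (-1.86). In these 3 genes both late libraries lay below both early ones, although the late Tpi1 libraries were far apart.
Aldoa, the aldolase, fell from 42.7 and 41.7 FPKM to 21.6 and 18.2 FPKM (-1.04), and its call was lost without library B of late-2-cell-con (-0.93). Ldhb fell from 1904 to 938 FPKM per library (-1.02). Its late libraries held 892 and 984 FPKM, while the early column allows 4 splits of whole reads, with libraries anywhere between 1190 and 2618 FPKM, all above the late ones. The Ldhb call was also close to the threshold and was lost without library A of late-2-cell-con (-0.95).
Slc16a1, which moves lactate and pyruvate across the membrane, rose from 7.65 and 12.2 FPKM to 39.7 and 23.9 FPKM (1.59). Both late libraries lay above both early ones. Gapdh was also higher in both late libraries, at 12.3 and 13.0 FPKM against 5.49 and 8.34 FPKM, but short of 2-fold (0.79). Pkm was lower in both, at 33.5 and 20.8 FPKM against 33.8 and 40.2 FPKM (-0.43). Hk2 held 0 and 5.19 FPKM in the late libraries, which lay on either side of the early ones. With no overlap of libraries also required, 4 members were lower and 1 higher, against 27.0% and 24.5% of 9149 genes. Ldhb could not enter that count.

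**Figure D2:**
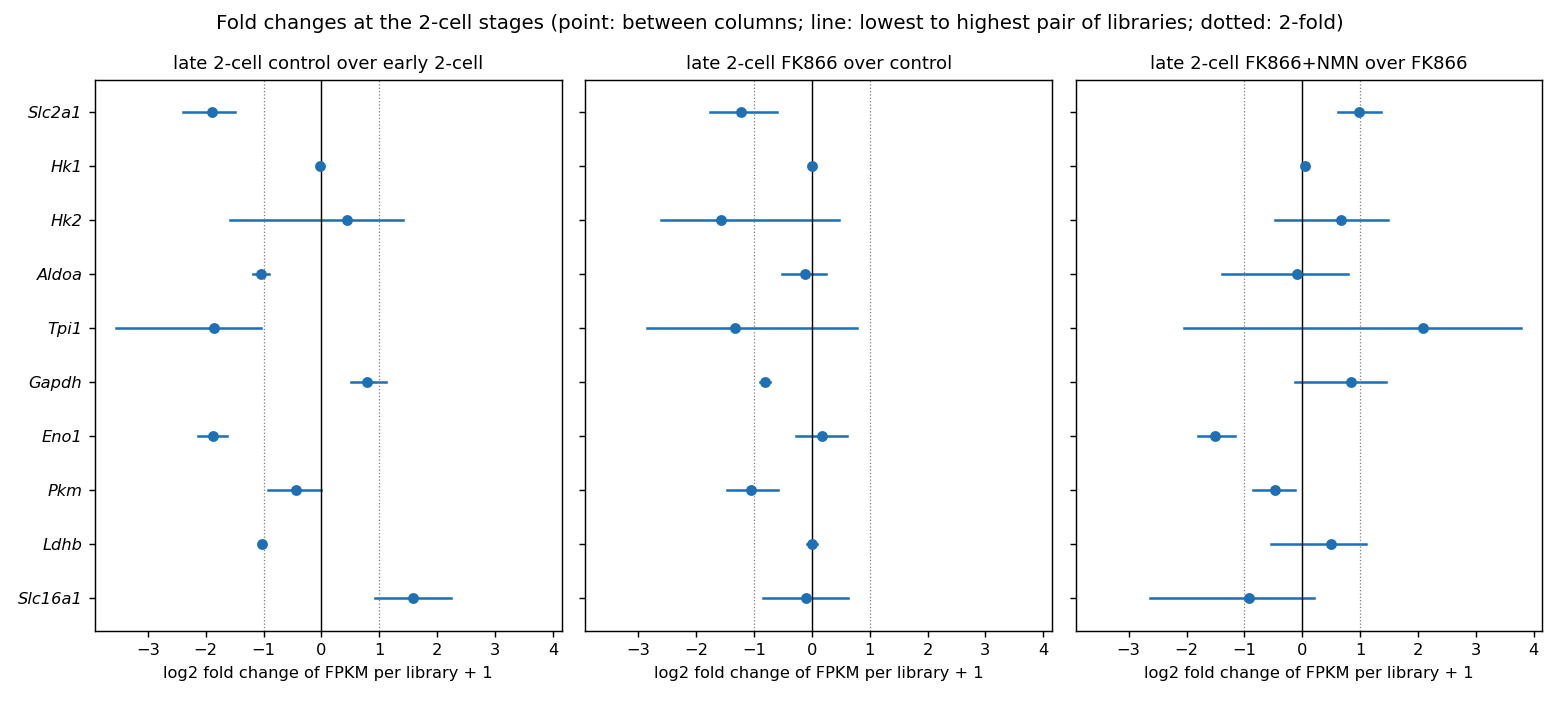
Log2 fold change of FPKM per library + 1 for the 10 genes in 3 comparisons at the 2-cell stages. Points compare columns, lines span the lowest to the highest pair of libraries (none for Ldhb in the first panel), and dotted lines mark 2-fold; Slc2a1 lies left of zero in the first and second panels and right of it in the third.

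FK866 against control at the late 2-cell stage gave lower Slc2a1 and Pkm, while the abundant Ldhb overlapped between the columns. Of 9 expressed members, 4 were called lower (Slc2a1, Pkm, Hk2 and Tpi1) and none higher, where 19.9% of 9022 expressed genes were called lower and 18.1% higher, 38.1% in all. The median was -0.46 over the 10 members and -0.06 over expressed genes. Relative to the latter, 3 members were lower, since Pkm was then at -0.99, and with a pseudocount of 5 in place of 1 none of the 4 was called.
Slc2a1 was at 2.90 and 4.21 FPKM with FK866, below the control libraries at 6.95 and 12.3 FPKM (-1.22). Pkm, which makes pyruvate, was at 11.5 and 13.6 FPKM against 33.5 and 20.8 FPKM (-1.06). Neither gene overlapped the control, and with no overlap 2 of 9 expressed members were lower and none higher, against 10.9% and 9.43% of 8769 genes. Each call rested on library values near the threshold: Slc2a1 was at -0.80 without library B of the control, and Pkm at -0.69 without library A of the control and -0.95 without library A of FK866.
The other 2 calls rested on 1 control library. Hk2, a hexokinase, was at 0.02 and 0.39 FPKM with FK866 and at 0 and 5.19 FPKM in the control (-1.58). Tpi1 was at 3.32 and 0.80 FPKM with FK866 and at 1.50 and 11.9 FPKM in the control (-1.33). Without library B of the control the values turned to 0.27 for Hk2 and 0.29 for Tpi1, and without library B of FK866 Tpi1 was at -0.84. The libraries of both genes overlapped.
Gapdh was lower in both FK866 libraries, at 6.53 and 6.99 FPKM against 12.3 and 13.0 FPKM, short of 2-fold (-0.81). Ldhb held 923 and 948 FPKM with FK866 and 892 and 984 FPKM in the control, so that the FK866 libraries lay between the control ones. Slc16a1, Aldoa and Eno1 also overlapped, with log2 fold changes of -0.11, -0.11 and 0.17. Hk1 had 0 reads in all 4 libraries.

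Adding NMN to FK866 gave a mixed result, with Eno1 lower and Slc2a1 just under the threshold for a higher call. Of 8 expressed members, 1 was called higher (Tpi1) and 1 lower (Eno1), where 18.9% of 8605 expressed genes were called higher and 33.3% lower, 52.1% in all. Expressed genes as a whole had a median of -0.24, and relative to that median 3 members were called higher and 1 lower, as they also were where the columns were not divided by the number of libraries.
Slc2a1 was at 6.97 and 9.01 FPKM with NMN, above the FK866 libraries at 2.90 and 4.21 FPKM. The ratio of FPKM was 2.25, but the log2 value of 0.98 lay just under the threshold for a call. Against the control it overlapped, at -0.24. Eno1 fell to 0.18 and 0.07 FPKM from 2.72 and 1.65 FPKM with FK866 alone (-1.50), and was also lower than the control (-1.33), with no overlap in either comparison. With no overlap, 1 of 8 expressed members was lower and none higher, against 20.6% and 5.7% of 8337 genes.
Tpi1 was at 0.04 and 23.8 FPKM in the NMN libraries, which lay on either side of the FK866 libraries at 3.32 and 0.80 FPKM. Its value of 2.08 turned to -1.55 without library B of FK866+NMN. Pkm with NMN was at 7.04 and 10.5 FPKM, below the FK866 libraries (-0.47) and below the control (-1.53). Slc16a1 was at 5.18 and 25.0 FPKM and Ldhb at 1970 and 654 FPKM, with libraries more than 2-fold apart.
Against the shared control column, 3 of 9 expressed members were called lower with FK866+NMN (Slc16a1, Eno1 and Pkm) and none higher, where 36.2% of 8639 expressed genes were called lower and 21.0% higher, 57.2% in all. With no overlap, 2 members (Eno1 and Pkm) were lower and none higher, against 23.1% and 7.47% of 8378 genes. Relative to the median of -0.35, 1 member was higher and 1 lower in that comparison. The Slc16a1 call (-1.03) was lost without library A of FK866+NMN (-0.33) and without library A of the control (-0.63). The column headed late-2-cell-FK866-NMN was the least even one. Among genes with at least 1 FPKM per library there, 5 of 7 members and 68.5% of 6127 genes differed by over 2-fold between its own libraries.

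The column that carries the TSA label depends on the reading, and the members differed between the readings in level and direction. By the headers, 6 of 10 members were called lower and 1 higher, where 41.3% of 8648 expressed genes were called lower and 23.2% higher, 64.5% in all. By the tables, 1 of 10 was called lower and 3 higher, where 29.7% of 9420 expressed genes were lower and 30.1% higher, 59.8% in all. The medians over the 10 members were -1.55 by the headers and 0.56 by the tables, against -0.44 and 0.07 over expressed genes. The 2-cell stage markers, at 394 FPKM in the control, summed to 10.6 FPKM in the column headed late-2-cell-TSA and to 248 FPKM in the column of the tables, and their part in the results was not tested.
By the headers, Ldhb was at 8.18 and 17.5 FPKM, against 892 and 984 FPKM in the control, a log2 fold change of -6.09. Gapdh, the NAD+-dependent step, was at 1.09 and 0.22 FPKM against 12.3 and 13.0 FPKM (-3.04). Slc2a1 was at 0.04 and 2.36 FPKM against 6.95 and 12.3 FPKM (-2.27), and Pkm at 2.36 and 8.91 FPKM against 33.5 and 20.8 FPKM (-2.09). In each of these 4 genes both libraries lay below both control libraries.
Tpi1 had 1 read in this column against 164 reads in the control, 205 times lower with a 95% counting interval of 36.3 to 8159. Hk1 had 461 and 46 reads against 0 in both control libraries, at least 135-fold higher when the control is set to 3 reads. Its log2 value of 2.42 was 0.87 without library A of that column. Hk2 was called lower (-1.02), but its libraries overlapped and its value was 0.82 without library B of the control and -0.52 without library A of the column. With no overlap, 5 members were lower and 1 higher, against 28.0% and 17.7% of 8417 genes. Relative to the median of the expressed genes, 2 members were higher and 5 lower.
By the tables, TSA is the column headed 4-cell-FK866, which holds 1 library, and a column of 1 library shows no spread. Eno1 was at 8.73 FPKM, above the control libraries at 1.45 and 2.19 FPKM (1.79). Hk2 was at 8.87 FPKM, above 0 and 5.19 FPKM (1.46), and at 0.67 without library A of the control. Hk1 had 155 reads, at least 118-fold more than the control at 3 reads. Slc16a1 was at 11.9 FPKM, below 39.7 and 23.9 FPKM (-1.34), and at -0.95 without library A of the control.
In the same reading Slc2a1 was at 19.4 FPKM, above both control libraries, with a ratio of FPKM of 2.02 and a log2 value of 0.94, just under the threshold. Ldhb at 1174 FPKM was also above both (0.32), without a call. The 3 higher and 1 lower calls all lay outside the control libraries, against 30.0% and 21.2% of 9152 genes. This comparison sets 1 library against the mean of 2, and where the columns were not divided 2 members were higher and 3 lower.

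The group labelled Sirt1 gave 5 lower members in either reading, but the readings had different columns and partly different genes. By the headers 1 of 10 expressed members was higher and 5 were lower, where 24.3% of 8779 expressed genes were higher and 36.6% lower, 60.9% in all. By the tables none of 9 expressed members was higher and 5 were lower, where 16.4% of 8622 expressed genes were higher and 28.2% lower, 44.5% in all. The medians were -0.87 and -0.85 over the 10 members, against -0.28 and -0.21 over expressed genes.
By the headers, Ldhb was at 104 and 80.6 FPKM against 892 and 984 FPKM in the control (-3.33). Slc2a1 was at 0.06 and 2.16 FPKM (-2.33) and Gapdh at 2.49 and 1.15 FPKM (-2.28), both below the control libraries. Hk1, with 143 and 65 reads, was at least 56.3-fold higher than a control set to 3 reads. Those 3 lower and 1 higher members were the calls with no overlap, against 25.2% and 18.6% of 8537 genes. The Hk2 and Tpi1 calls (-1.45 and -1.01) overlapped the control, and without its library B they turned to 0.40 and 0.62.
By the tables, the group is the column headed 4-cell-FK866-NMN, again 1 library. Tpi1 had 0 reads against 164 in the control, at least 35.3-fold lower with the column set to 3 reads. Gapdh was at 3.01 FPKM against 12.3 and 13.0 FPKM (-1.77), Aldoa at 7.46 FPKM against 21.6 and 18.2 FPKM (-1.31), and Pkm at 11.7 FPKM against 33.5 and 20.8 FPKM (-1.14). All 4 lay below both control libraries, where 17.2% of 8396 genes were called lower in this way and 16.3% higher.
Pkm was at -0.78 without library A of the control. Hk2 was at 0.65 FPKM between the control libraries (-1.12), and at 0.73 on the log2 scale without library B of the control. Ldhb was at 629 FPKM, below both control libraries but short of 2-fold (-0.58), and Slc2a1 at 13.2 FPKM was above both (0.43). Relative to the median of the expressed genes 1 member was higher and 3 lower.

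From the late 2-cell to the 4-cell control, Ldhb, Gapdh, Slc2a1 and Tpi1 were lower and Hk1 higher in both readings. By the headers 5 of 10 expressed members were lower and 1 higher, where 33.8% of 8868 expressed genes were lower and 24.2% higher, 58.0% in all. By the tables the 4-cell control is the column headed late-2-cell-TSA, so that its values are those given above for TSA by the headers, with 6 lower and 1 higher. Both readings use the same late 2-cell column.
By the headers, Ldhb was at 91.6 and 44.7 FPKM against 892 and 984 FPKM (-3.76). Gapdh was at 0.13 and 0.78 FPKM against 12.3 and 13.0 FPKM (-3.23). Slc2a1 was at 1.09 and 1.41 FPKM against 6.95 and 12.3 FPKM (-2.23).
Tpi1 was at 1.33 and 0.16 FPKM against 1.50 and 11.9 FPKM (-2.15), and at -0.52 without library B of late-2-cell-con. Aldoa was at 7.84 and 5.18 FPKM against 21.6 and 18.2 FPKM (-1.48). All 5 lower members lay below both late 2-cell libraries, where 23.3% of 8628 genes were called lower in this way and 19.8% higher. Hk1, with 18 and 65 reads, was at least 29.2-fold higher than a late 2-cell column set to 3 reads, and its log2 value of 1.01 was 0.47 without library B of 4-cell-con.
Slc16a1 reached its highest level here, 70.8 and 45.2 FPKM, above both late 2-cell libraries but short of 2-fold (0.85). Relative to the median of -0.21 it passed the threshold, giving 2 members higher and 5 lower. In the reading by the tables Slc16a1 was at 18.2 and 25.7 FPKM, which overlapped the late 2-cell libraries (-0.52).

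FK866 against control at the 4-cell stage gave higher Ldhb and Tpi1 in both readings. The readings parted on both transporters and on the enzyme genes Hk1, Hk2, Eno1 and Pkm. By the headers 8 of 10 members were called higher and 1 lower, where 41.8% of 9368 expressed genes were higher and 32.9% lower, 74.7% in all. In the reading by the tables, 3 of 9 expressed members were higher and none lower, where 21.2% of 7420 expressed genes were higher and 13.4% lower, 34.6% in all. The medians over the 10 members were 1.49 and 0.55, against 0.42 and 0.10 over expressed genes.
By the headers, Ldhb was at 1174 FPKM in the single FK866 library against 91.6 and 44.7 FPKM in the control (4.09). Gapdh was at 13.6 FPKM against 0.13 and 0.78 FPKM (3.32), and Slc2a1 at 19.4 FPKM against 1.09 and 1.41 FPKM (3.18). Slc16a1 was at 11.9 FPKM against 70.8 and 45.2 FPKM (-2.19), the only lower call. All 9 calls lay outside the control libraries, as did 41.6% of 9102 genes in the higher and 29.1% in the lower direction.
Hk1 was at 0.89 without library A of the control and Eno1 at 0.91 without its library B. Where the columns were not divided by the number of libraries, 4 members were higher and 2 lower. The column headed 4-cell-FK866 also held 248 FPKM of the 2-cell markers against 35.7 FPKM in 4-cell-con, 8.12 FPKM of Cyp19a1 against 0, and 130 FPKM of Hba-a1 against 1.26 FPKM. The part of these differences in the result was not tested.
By the tables, Ldhb was at 104 and 80.6 FPKM with FK866 against 8.18 and 17.5 FPKM in the control (2.75). Pkm was at 18.2 and 13.8 FPKM against 2.36 and 8.91 FPKM (1.35), and Tpi1 had 148 reads against 1, a ratio of 150 with a 95% counting interval of 26.6 to 5978. All 3 lay above the control libraries, as did 12.7% of 7219 genes, while no member and 7.0% of genes lay below.
Pkm was at 0.77 without library A of the control, and Tpi1 at 0.50 without library A of FK866. Aldoa, Gapdh and Slc16a1 were also above both control libraries without a call, at 0.61, 0.77 and 0.50. For Gapdh the ratio of FPKM itself was 2.76, at 2.49 and 1.15 FPKM against 1.09 and 0.22 FPKM. Slc2a1 overlapped the control in this reading, at 0.06 and 2.16 FPKM against 0.04 and 2.36 FPKM (-0.06). Hk1, Hk2 and Eno1 also overlapped it, at -0.82, -0.43 and -0.72, while by the headers they were called higher, at 1.28, 1.46 and 1.51. Pkm was at -0.25 by the headers, the only member without a call there.

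**Figure D3:**
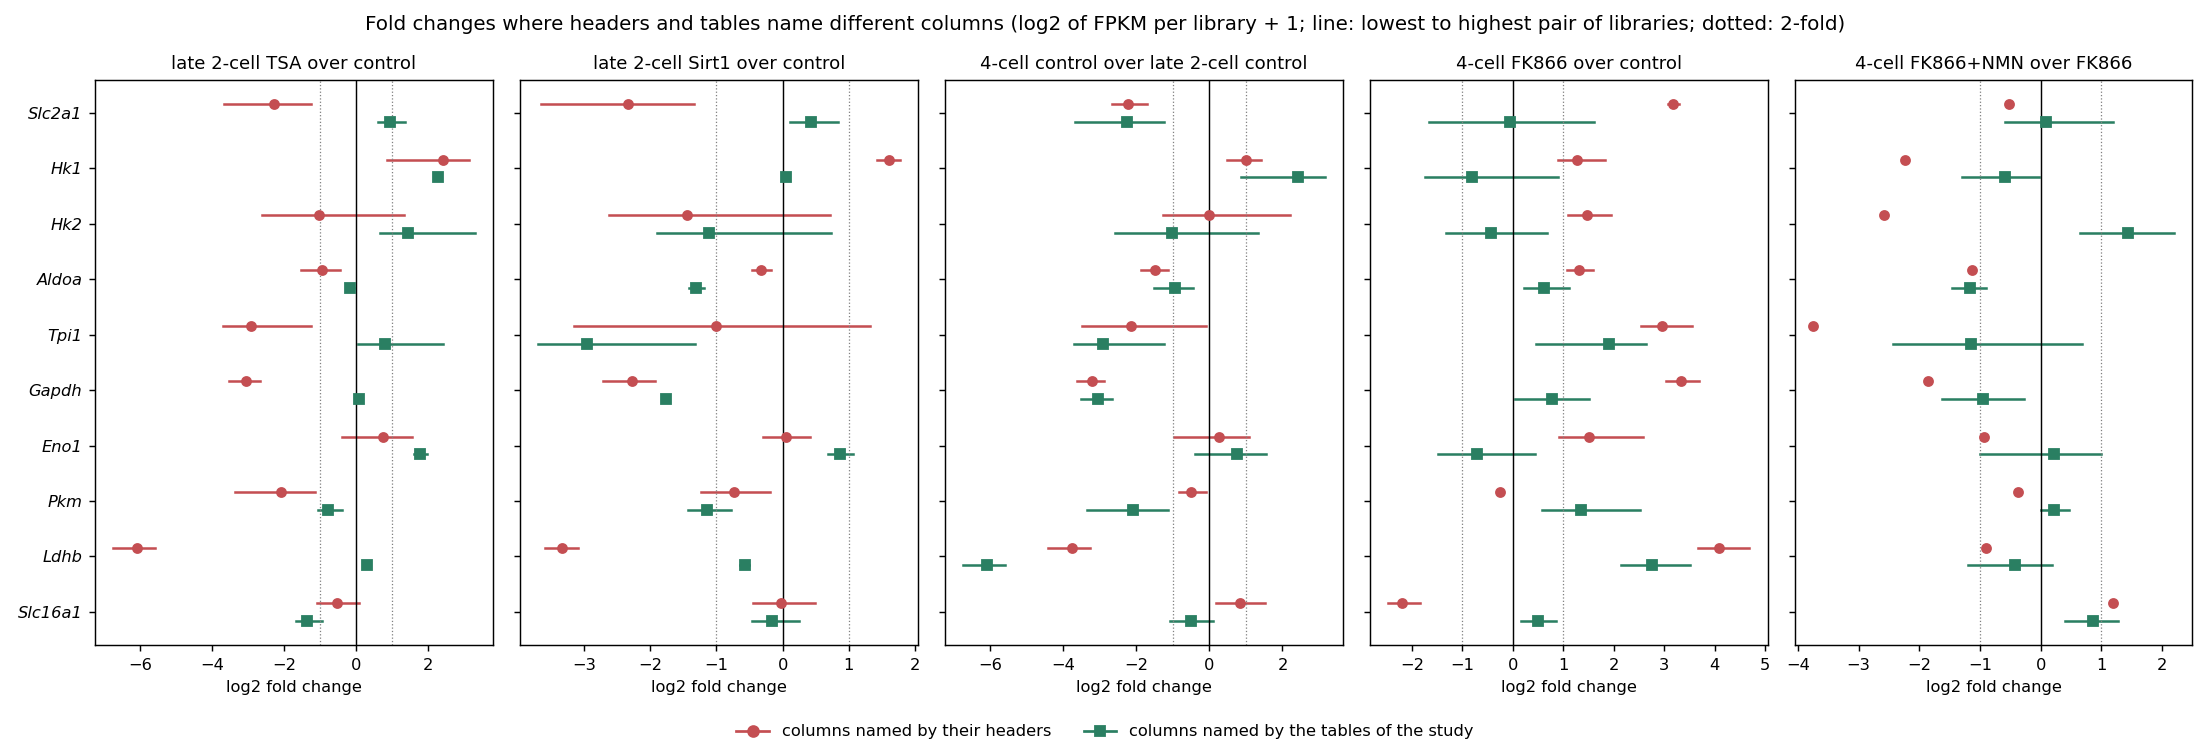
Log2 fold change of FPKM per library + 1 for the 10 genes in the 5 comparisons whose columns are named differently by the headers (circles) and by the tables (squares). Lines span the lowest to the highest pair of libraries and dotted lines mark 2-fold; Ldhb lies at -6.09 against 0.32 for TSA and at 4.09 against 2.75 for FK866 at the 4-cell stage.

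FK866 with NMN against FK866 alone at the 4-cell stage gave more lower than higher calls by the headers and few calls by the tables. By the headers each column holds 1 library, and 5 of 10 members were lower and 1 higher, where 34.7% of 8929 expressed genes were lower and 25.0% higher, 59.7% in all. Tpi1 had 0 reads against 161, at least 79.2-fold lower, and Hk1 had 2 reads against 155, 114 times lower with a 95% counting interval of 31.1 to 952. Hk2 was at 0.65 against 8.87 FPKM (-2.58), and Slc16a1 at 28.5 against 11.9 FPKM was the higher call (1.19).
In the reading by the tables, 2 of 10 members were lower and 1 higher, where 11.5% of 7754 expressed genes were lower and 14.8% higher, 26.3% in all. Hk2 was at 1.56 and 3.61 FPKM against 0 and 0.63 FPKM (1.44), with no overlap. Aldoa was at 7.84 and 5.18 FPKM against 15.4 and 16.04 FPKM (-1.16), also with no overlap. These made 1 higher and 1 lower member of that kind, against 9.54% and 5.17% of 7547 genes.
Without library B of the NMN column Hk2 was at 0.96, Aldoa at -0.92 and Tpi1 at -0.72. The Tpi1 call (-1.14) overlapped and turned to 0.26 without library A of FK866. Ldhb overlapped, at 91.6 and 44.7 FPKM against 104 and 80.6 FPKM (-0.43).

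Members of the same step did not keep a fixed ratio. Ldhb exceeded Ldha, the form of lactate dehydrogenase typical of glycolytic tissues, by 672 times in early-2-cell and by 33.4 times in late-2-cell-con, since Ldha rose from 2.09 and 3.58 FPKM to 20.6 and 35.6 FPKM (2.92) while Ldhb fell. The ratio was 49.4 with FK866 and 399 with FK866+NMN, where Ldha was at 0.14 and 6.44 FPKM. It was lowest, 3.50, in the column headed late-2-cell-TSA.
The glucose transporters changed order between columns. Slc2a3 was at 0 and 0.74 FPKM in early-2-cell and at 0.13 and 5.04 FPKM in late-2-cell-con, so its higher call there (1.39) rested on library B of the control and the libraries overlapped. Slc2a1 exceeded Slc2a3, a glucose transporter of higher affinity, by 104 times in early-2-cell and 3.72 times in late-2-cell-con, and Slc2a3 was the higher one in the columns headed late-2-cell-TSA, late-2-cell-Sirt1 and 4-cell-con, with ratios of 0.53, 0.36 and 0.36. In the last column the libraries did not overlap, with Slc2a1 at 1.09 and 1.41 FPKM and Slc2a3 at 4.23 and 2.68 FPKM. Nor did they in the column headed late-2-cell-Sirt1, with Slc2a1 at 0.06 and 2.16 FPKM and Slc2a3 at 2.25 and 3.83 FPKM. In the column headed late-2-cell-TSA the order rested on library A, and library B had Slc2a1 at 2.36 and Slc2a3 at 1.86 FPKM. Hk1 exceeded Hk2 in 2 columns, those headed late-2-cell-TSA and late-2-cell-Sirt1, by 5.66 and 6.43 times. In the former this rested on library A, with Hk1 at 7.88 and Hk2 at 0.02 FPKM, and library B had the opposite order, at 0.83 and 1.51 FPKM.
Gapdh shares its sequence with many pseudogenes, and how reads that match several places were counted is not given in the sources used here. Gapdh-ps16 (chr8:92715747-92716975) held between 0 and 11.3 FPKM and followed Gapdh over the 9 columns (Pearson r 0.98), so the level of Gapdh is uncertain. That correlation has 1 point for each of the 9 columns and was not tested.

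**Figure D4:**
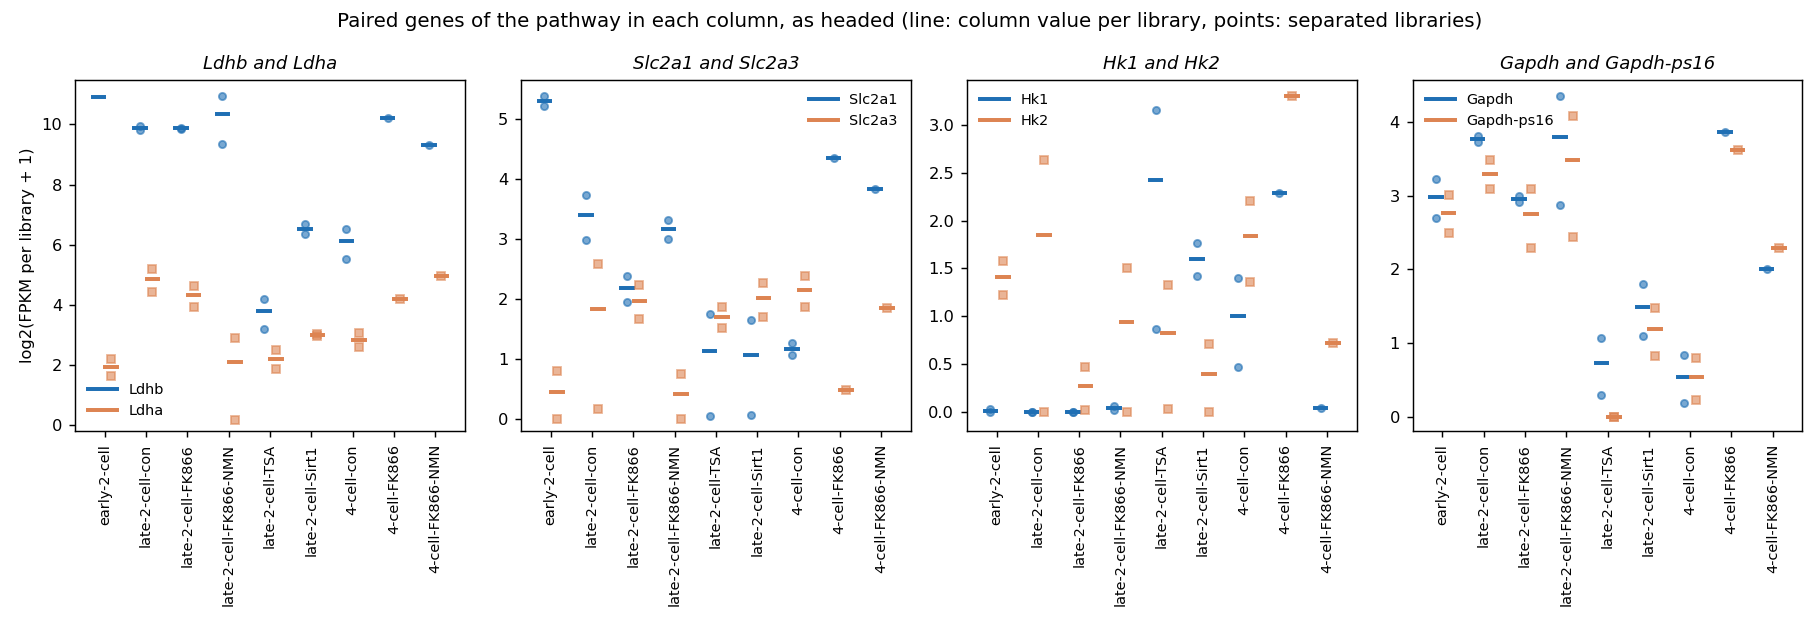
Levels of 4 gene pairs as log2(FPKM per library + 1) in the 9 columns named by their headers; lines are column values per library and points the separated libraries. Between early-2-cell and late-2-cell-con Ldha rises where Ldhb and Slc2a1 fall, Slc2a3 is higher only in library B of the control, and Gapdh-ps16 stays near Gapdh.

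Across the 9 columns, Ldhb had levels most like those of Armc10, 1700018B24Rik and Mtmr14, with Pearson r of 0.99 for each on log2(FPKM per library + 1) among 6781 genes with at least 1 FPKM in 5 or more columns. Among the members, Gapdh followed Ldhb most closely (r 0.89), then Aldoa and Tpi1 (0.87) and Slc2a1 and Ldhb (0.83). Slc16a1 ran opposite to Slc2a1 (-0.72), Tpi1 (-0.71) and Aldoa (-0.70). Each gene has 1 value per column and the columns differ in stage and treatment, so the values describe these 9 columns and were not tested.

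The libraries of 1 column differed less for the members than for genes at large in early-2-cell, where none of 8 members and 21.7% of 7359 genes were more than 2-fold apart. Members and genes at large were not matched for level in these counts, and the part of level was not tested. In late-2-cell-con 2 of 9 members, Hk2 and Tpi1, and 43.0% of 7446 genes were that far apart, and in late-2-cell-FK866 1 of 8 and 41.8% of 7459. The column headed late-2-cell-TSA was the reverse, with 5 of 7 members and 40.5% of 5933 genes that far apart, and a median log2 difference of 1.56 against 0.74. In the column headed 4-cell-con 2 of 8 members and 27.1% of 6722 genes were, with medians of 0.74 and 0.54. By the plain ratio of FPKM, at any level, Hk2 and Tpi1 differed by 2-fold or more in 6 of the 7 columns of 2 libraries. By that measure Hk1 and Gapdh differed in 4, Eno1 in 3, Slc2a1 in 2, and Slc16a1, Aldoa and Pkm in 1. Ldhb did so in 3 of the 6 columns where it could be separated. The Hk1 columns include early-2-cell, with 0 and 1 reads, and late-2-cell-FK866-NMN, with 1 and 2 reads.

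Of 71 further genes of the pathway, its branches and its transporters, 35 were among the rows. From early to late 2-cell control, 15 of 30 expressed ones were higher and 6 lower, a median of 1.04, beside 32.2% and 31.7% of all expressed genes. The branch genes were prominent: Tigar, which lowers the flux through glycolysis, rose from 3.78 and 0.82 FPKM to 55.9 and 44.8 FPKM (3.96), and Taldo1, of the pentose phosphate path, from 10.4 and 12.5 to 76.9 and 53.3 FPKM (2.41). Gpd1l, which links glycolysis to glycerol phosphate, rose from 21.1 and 23.5 to 111 and 98.8 FPKM (2.19).
Pyruvate genes moved in both directions at that step. Mpc2, a subunit of the mitochondrial pyruvate carrier, rose from 3.69 and 5.66 to 20.2 and 28.5 FPKM (2.16), while Pdhx, a part of pyruvate dehydrogenase, fell from 138 and 89.8 to 13.8 and 46.8 FPKM (-1.87). Pdp1 and Pdp2, phosphatases that switch pyruvate dehydrogenase on, moved apart, with Pdp1 at -2.61 and Pdp2 at 2.82. All of these were outside the range of the early libraries.
For FK866 over control in late 2-cell embryos, 3 of 28 expressed pathway genes were higher and 6 lower, a median of -0.20, beside 18.1% and 19.9% of all expressed genes. Bpgm, which makes 2,3-bisphosphoglycerate, fell from 138 and 232 to 72.3 and 87.5 FPKM (-1.20), and Pfkl, the liver form of phosphofructokinase, from 2.66 and 3.92 to 1.62 and 0.65 FPKM (-1.01), both with no overlap. Pgam2 and Hkdc1 were called lower too, listed at 0 with FK866 and overlapping the control. Dlat and Ldhd were higher with FK866 (1.25 and 1.23), with no overlap.
With FK866+NMN against FK866, 4 of 26 were higher and 10 lower, beside 18.9% and 33.3% of all expressed genes. Among the lower ones were Ldha (-2.22) and Mpc2 (-1.07), and Bpgm was at 55.7 and 101 FPKM (-0.02). For TSA against control 2 of 26 were higher and 11 lower by the headers (all genes 23.2% and 41.3%), and 7 of 28 higher and 10 lower by the tables (30.1% and 29.7%). For Sirt1 the counts were 5 higher and 7 lower of 26 by the headers (24.3% and 36.6%), and 3 higher and 9 lower of 29 by the tables (16.4% and 28.2%). For the 4-cell against the late 2-cell control they were 5 higher and 6 lower of 26 by the headers (24.2% and 33.8%).
For FK866 against control at the 4-cell stage they were 13 higher and 10 lower of 26 by the headers (41.8% and 32.9%), and 5 higher and none lower of 23 by the tables (21.2% and 13.4%). For FK866+NMN against FK866 at that stage they were 7 higher and 11 lower of 26 by the headers (25.0% and 34.7%), and 4 higher and 1 lower of 24 by the tables (14.8% and 11.5%). These counts are read beside the share of all genes and carry no test.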

How the data were processed

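The RNA-seq libraries of 9 groups of mouse embryos were used; CUT&Tag libraries are not analysed here. Per the methods, the authors mapped reads to mm10 (HISAT2) and counted reads in genes (featureCounts). The deposited FPKM table has a column per group and none per library. Base calling with CASAVA 1.4 is named in the submitters' processing notes. The rows cover chromosomes 1 to 11, the last in part, and 15737 of 15747 complete rows have a symbol listed once.

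Values multiplied by the exon length (GENCODE M21) fell on whole reads for 97.3% to 97.8% of low values, which gave 16 library totals and the reads of each library. Columns that are sums of 2 libraries were divided by 2. Intervals and floors of 3 reads cover counting error only. Samples were grouped by the labels, and no column had a replicate number. Fold changes used a pseudocount of 1 and a minimum of 1 FPKM per library, with no p-value, and the steps were tested on simulated data. Alternatives changed the pseudocount (0.1 or 5) or the filter (5 FPKM or none), centred fold changes on the median of all genes, left columns undivided, or left out each library. Columns are read by header and by the tables of the study. Members and gene lists were chosen with earlier results of these data known. Named genes are the members, the fixed pathway list, Sirt1, pseudogenes of members, and the 3 genes most like the member with the highest level and widest range. Computation was in Python 3.11.15 (pandas 2.3.3, numpy 2.4.6 and scipy 1.17.1), with matplotlib 3.10.9 for plots.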

Additional observations from a re-analysis of the deposited data

Results flagged for a closer look

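The difference between FK866 and control had opposite signs at the 2 stages for some members, in every separated pair of libraries. By the headers, the log2 fold change at the 4-cell stage exceeded that at the late 2-cell stage by 4.40 for Slc2a1 and by 4.14 for Gapdh. By the tables, it exceeded it by 1.58 for Gapdh and by 2.41 for Pkm. The difference of FK866+NMN from FK866 also changed sign, with a 4-cell minus late 2-cell value of -1.50 for Slc2a1 by the headers and of 0.70 for Pkm by the tables. Neither gene was called at either stage. At the 4-cell stage Slc2a1 was at -0.515 by the headers, and Pkm at 0.22 by the tables with a lowest library pair of 0.005, close to no difference. By the headers the 4-cell FK866 columns hold 1 library each. None of these differences between stages was tested.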

How the results depend on the processing

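Of 1300 member values under an alternative, 1163 moved by no more than the spread of the libraries, 128 moved further and 9 reversed. Of 130 counts of members past 2-fold, 105 were within 1.5 times the reported count and 25 were not. The cause was not tested. Counts by the headers are given first. With a pseudocount of 5 the count was 0 instead of 4 for late 2-cell FK866 over control, 1 instead of 2 for FK866+NMN over FK866, 1 instead of 3 for FK866+NMN over control, 3 instead of 6 for Sirt1, and at the 4-cell stage 5 instead of 9 for FK866 and 3 instead of 6 for FK866+NMN over FK866. In the reading by the tables, it was 2 instead of 4 for TSA, 3 instead of 5 for Sirt1, 1 instead of 3 for 4-cell FK866 and 0 instead of 3 for 4-cell FK866+NMN over FK866. With a pseudocount of 0.1 the count for 4-cell FK866 by the tables was 5. With a minimum of 5 FPKM it was 1 for the late 2-cell comparison of FK866+NMN with FK866 and 1 for the 4-cell one by the tables. Centring on the median, and columns not divided, each gave 4 for late 2-cell FK866+NMN over FK866.

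Leaving out 1 library gave counts of 1 to 3 for late 2-cell FK866, 2 to 5 for FK866+NMN over FK866, 3 to 6 for FK866+NMN over control, and in the reading by the tables, from 2 to 7 for TSA, 2 to 6 for 4-cell FK866 and 2 to 5 for 4-cell FK866+NMN over FK866. The reversed values belong to Hk2 and Tpi1. Over the libraries left out, Hk2 ranged from -2.36 to 0.27 for late 2-cell FK866, from -1.81 to 0.82 for TSA by the headers, which is also the 4-cell control by the tables, from -2.23 to 0.40 for Sirt1 by the headers and from -1.90 to 0.73 by the tables. Tpi1 ranged from -2.10 to 0.29 for late 2-cell FK866, from -1.55 to 3.02 for FK866+NMN over FK866, from -2.41 to 0.62 for Sirt1 by the headers and from -1.84 to 0.26 for 4-cell FK866+NMN over FK866 by the tables. No paired analysis was possible because the columns carry no replicate number. Columns of 1 library, and 2 libraries in the others, limit every comparison, and libraries of 3 embryos leave members under about 1 FPKM, such as Hk1 and Hk2, on few reads.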
